A study of Homo sapiens with 4 samples.

Results

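The insulin-like growth factor (IGF) binding proteins and receptors are described here as 10 genes: the 6 binding proteins of high affinity IGFBP1 to IGFBP6, the related IGFBP7, the receptors IGF1R and IGF2R, and PAPPA, a secreted protease that cuts binding proteins. They were taken by symbol from a table of 58735 genes, and all 10 were found. The cells were MDA-MB-231 and SUM159, human triple-negative breast cancer (TNBC) lines with mesenchymal features, treated for 72 h with 1 μM mebendazole (MBZ), an anthelmintic benzimidazole that binds tubulin, or with DMSO, its solvent. Each of the 4 conditions has 1 library of poly-A selected RNA. MDA-MB-231 cells were grown in DMEM with serum, and SUM159 cells in Ham's F12 with serum, insulin and hydrocortisone, so a difference between the untreated lines cannot be told apart from one of medium. The study asked what MBZ does to TNBC cells, and this RNA-seq addresses which transcripts differ after treatment.

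IGF1 and IGF2 signal through the receptor tyrosine kinase IGF1R, which recruits IRS and SHC adaptors and feeds the PI3K, AKT and MAPK pathways. IGF2R, also the cation-independent mannose 6-phosphate receptor, has no kinase, takes up IGF2 for breakdown and carries lysosomal enzymes. Binding proteins hold IGFs in the fluid around cells, where they can block or prolong signalling, and proteases such as PAPPA release the ligand by cutting IGFBP4 and IGFBP5. In breast tumour cells the binding proteins are made in line-specific combinations, and insulin and FOXO factors are known to regulate IGFBP1.

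The libraries held between 17143139 and 24897586 reads on genes. The mesenchymal markers VIM and CD44 had between 20703 and 54409 and between 7435 and 20239 counts, the epithelial KRT18 between 4197 and 10874, and EPCAM, also epithelial, 144 and 190 in the MDA-MB-231 line but 6 and 9 in the SUM159 line. ESR1 had 1 and 0 counts in MDA-MB-231 and 2 and 18 in SUM159, a log2 ratio of 2.79 (0.79 to 6.01) in the latter, PGR 0 in all 4, and ERBB2 between 1216 and 1996. The liver gene ALB had at most 2 counts and the endothelial gene CDH5 at most 6, while the leukocyte gene PTPRC had between 8 and 216 and the endothelial and platelet gene PECAM1 between 328 and 825. PTPRC was 4.47-fold lower with MBZ in SUM159 (216 and 60 counts) and 3.43-fold higher in MDA-MB-231 (8 and 23 counts), and VIM was 1.89-fold lower in MDA-MB-231 and 1.62-fold lower in SUM159. The other abundant markers were at log2 ratios of -0.01 and -0.44 for CD44, -0.74 and -0.30 for KRT18, and -0.29 and -0.90 for ERBB2, while EPCAM was at 0.67 in MDA-MB-231 and PECAM1 at 0.12 and 0.02. The part of these markers in the results below was not tested. Levels are given either in CPM (counts scaled to library size with TMM factors within a line), used to compare treatments, or in TPM (counts divided by exonic length, then scaled to the same sum in each library), used to compare genes. With 1 library per condition no difference within a line has a replicate check, and each log2 ratio (the log2 fold change, MBZ over DMSO) is followed by its 95% Clopper-Pearson interval, which covers counting error only. Scaling by total counts in place of TMM would move the median log2 ratio of all genes from -0.02 to 0.25 in MDA-MB-231 and from -0.03 to 0.27 in SUM159, so that small negative ratios turn positive. Paired values give MDA-MB-231 first.

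The stretches of 250 bases before the start sites of 4 genes are shown because IGFBP4 was the most abundant of the 10 transcripts, IGF1R and IGF2R were both lower with MBZ in the SUM159 line, and PAPPA is the protease that cuts IGFBP4. They are RefSeq promoters on GRCh38.p14, written 5′ to 3′ on the gene's own strand, and capitals mark a TATA box (TATAAA), a GC box (GGGCGG), an E box (CACGTG) or a forkhead core (TGTTTAC), searched on both strands, so that a GC box may read CCGCCC.
IGFBP4, chr17:40443200-40443449, plus strand: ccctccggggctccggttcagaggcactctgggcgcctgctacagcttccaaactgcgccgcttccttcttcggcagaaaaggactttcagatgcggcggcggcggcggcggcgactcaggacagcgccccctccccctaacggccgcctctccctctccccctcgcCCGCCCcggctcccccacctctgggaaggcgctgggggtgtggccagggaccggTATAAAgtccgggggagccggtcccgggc
IGF1R, chr15:98648289-98648538, plus strand: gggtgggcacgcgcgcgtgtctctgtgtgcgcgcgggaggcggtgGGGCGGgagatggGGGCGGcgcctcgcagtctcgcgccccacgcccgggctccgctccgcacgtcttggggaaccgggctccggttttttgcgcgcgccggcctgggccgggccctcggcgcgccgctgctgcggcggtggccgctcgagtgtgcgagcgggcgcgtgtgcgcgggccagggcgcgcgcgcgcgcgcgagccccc
IGF2R, chr6:159968832-159969081, plus strand: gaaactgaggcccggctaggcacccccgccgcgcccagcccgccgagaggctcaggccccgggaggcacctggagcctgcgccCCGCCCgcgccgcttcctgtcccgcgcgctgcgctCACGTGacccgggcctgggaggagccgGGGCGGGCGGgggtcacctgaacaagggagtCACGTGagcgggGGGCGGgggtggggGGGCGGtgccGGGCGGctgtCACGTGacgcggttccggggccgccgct
PAPPA, chr9:116153541-116153790, plus strand: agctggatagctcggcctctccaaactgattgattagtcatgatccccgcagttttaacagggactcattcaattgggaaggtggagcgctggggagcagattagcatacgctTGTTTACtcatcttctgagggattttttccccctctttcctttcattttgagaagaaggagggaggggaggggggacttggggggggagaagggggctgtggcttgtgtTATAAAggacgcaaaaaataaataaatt
The IGFBP4 stretch, 71.6% G and C, held a TATA box 29 bases and a GC box 83 bases before the start. The receptor stretches held no TATA box. That of IGF1R, 81.2% G and C, had 2 GC boxes, and that of IGF2R, 79.2% G and C, had 6 GC boxes, of which 2 overlap, and 3 E boxes. The PAPPA stretch, 48% G and C, had a TATA box 28 bases and a forkhead core 137 bases before the start. Over 34788 promoters of the same length, 10.8% held the TATA box, 42.6% the GC box, 6.31% the E box and 2.98% the forkhead core on either strand, and the median share of G and C was 58%. Of the 10 genes 8 matched the RefSeq table, and among the other 4 of these a forkhead core was found before IGFBP6 and a TATA box before none. IGFBP1 and IGFBP7 had no entry. A match describes the letters only.

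IGFBP4 was the leading transcript of the family in both lines and was lower with MBZ in both. It encodes a soluble binding protein that mostly inhibits IGF action, lies on chromosome 17 from 40443450 to 40457725 of GRCh38, and shares no exonic base with another gene. Its level was 7076 CPM with DMSO and 2643 CPM with MBZ in the MDA-MB-231 line, 2.68-fold lower (log2 ratio -1.42, -1.44 to -1.41). SUM159 cells had 2388 CPM with DMSO and 716 CPM with MBZ, 3.34-fold lower (-1.74, -1.77 to -1.71). In such bulk RNA, fewer cells that make a transcript and less of it per cell cannot be told apart. Both MBZ libraries lay below the DMSO library of their line, and the log2 ratio in the SUM159 line was 0.32 below that in the MDA-MB-231 line, with a counting interval of the difference (SUM159 minus MDA-MB-231) from -0.35 to -0.29. Per length, IGFBP4 stood at 10905 TPM in the MDA-MB-231 line with DMSO, the rank of 7 among all genes, and at 4948 TPM with MBZ, rank 14. The TPM of the SUM159 line was 3534 with DMSO and 1246 with MBZ, at ranks 36 and 86.

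IGFBP7 was lower with MBZ mainly in the MDA-MB-231 line, where its level was high. It encodes a secreted glycoprotein with weak affinity for IGFs that is found in vessel walls and matrix, on chromosome 4 from 57030773 to 57110385. MDA-MB-231 cells had 844 CPM with DMSO and 393 CPM with MBZ, a log2 ratio of -1.10 (-1.14 to -1.06). SUM159 cells had 48.5 and 40.3 CPM, a log2 ratio of -0.27 (-0.41 to -0.13), which was 0.04 with scaling by total counts. The log2 ratios of the lines differed by 0.84 (counting interval 0.69 to 0.98). Exons of IGFBP7 share 260 bases with POLR2B and 94 with IGFBP7-AS1 on the opposite strand, and since the strand setting of the counting is not given in the sources used here, reads on those bases are uncertain. POLR2B had between 1982 and 4779 counts and IGFBP7-AS1 at most 6.

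IGFBP6 was the member that was higher with MBZ in both lines, though by 1.5-fold or more only in the MDA-MB-231 line. It encodes a binding protein that prefers IGF2, on chromosome 12 from 53097436 to 53102345. Its level went from 75.5 to 128 CPM in the MDA-MB-231 line, a log2 ratio of 0.77 (0.68 to 0.86), and from 95.4 to 132 CPM in the SUM159 line, 0.47 (0.38 to 0.56). With scaling by total counts the value in the SUM159 line was 0.77, past 1.5-fold.

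IGFBP1, a binding protein made mainly by liver and decidua and lowered by insulin, was read in quantity in the MDA-MB-231 line only. There it had 910 counts with DMSO and 1662 with MBZ, or 40.1 and 88.4 CPM, a log2 ratio of 1.14 (1.02 to 1.26). SUM159 cells had 2 counts with DMSO and 0 with MBZ, and a count of 0 allows up to 0.143 CPM there, so no fold was computed. The gene lies on chromosome 7 from 45888360 to 45893660, with 18584 bases between its end and that of IGFBP3, which is read from the other strand.

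IGFBP3, the main IGF carrier of blood plasma, on chromosome 7 from 45912245 to 45921874, differed from its neighbour. It had 80.6 CPM with DMSO and 91.7 with MBZ in the MDA-MB-231 line, a log2 ratio of 0.19 (0.09 to 0.28). SUM159 cells had 60.3 CPM with DMSO and 40.7 CPM with MBZ, a log2 ratio of -0.57 (-0.70 to -0.44), just short of 1.5-fold. The 2 intervals lay on opposite sides of 0, and neither value passed 1.5-fold.

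IGFBP2 and IGFBP5 are the other pair of neighbours, end to end on chromosome 2 with 7668 bases between them, from 216632828 to 216664436 and from 216672105 to 216695549. IGFBP2, a binding protein that also contacts integrins, went from 245 to 85 counts in the MDA-MB-231 line, a log2 ratio of -1.25 (-1.63 to -0.89). In the SUM159 line it went from 208 to 168 counts, or 12.3 to 8.01 CPM, a log2 ratio of -0.62 (-0.93 to -0.32), which was -0.32 and under 1.5-fold with scaling by total counts. IGFBP5, a binding protein of matrix and of the involuting mammary gland, had 30 and 12 counts in the MDA-MB-231 line, a log2 ratio of -1.04 whose interval ran from -2.15 to -0.04. SUM159 cells had 108 and 40 counts, a log2 ratio of -1.75 (-2.31 to -1.21). Both genes were lower with MBZ in both lines, from low levels between 0.638 and 12.3 CPM, and the depth behind IGFBP5 in the MDA-MB-231 line sets its size only loosely. IGFBP5 shares 487 exonic bases with the antisense gene DIRC3-AS1, which had at most 2 counts.

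Both receptors were lower with MBZ in the SUM159 line and nearer to their DMSO level in the MDA-MB-231 line. IGF1R, on chromosome 15 from 98648539 to 98964530, had 18.7 TPM with DMSO in the MDA-MB-231 line and 17.8 TPM in the SUM159 line, nearly the same level. With MBZ it went from 76.9 to 58.6 CPM in the former, a log2 ratio of -0.39 (-0.50 to -0.28), and from 75.9 to 35.6 CPM in the latter, -1.09 (-1.23 to -0.96). IGF2R, on chromosome 6 from 159969082 to 160113507, had 289.6 and 273 CPM in the MDA-MB-231 line, a log2 ratio of -0.08 (-0.14 to -0.03), which was 0.18 with scaling by total counts. SUM159 cells went from 423 to 234 CPM, -0.85 (-0.90 to -0.80), and to -0.55, under 1.5-fold, with that scaling. The difference between the lines (SUM159 minus MDA-MB-231) was -0.70 for IGF1R, with a counting interval from -0.87 to -0.53, and -0.77 for IGF2R, from -0.84 to -0.69. IGF2R shares 571 exonic bases with the pseudogene CHP1P2 on the same strand, which had between 13 and 93 counts.

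PAPPA, on chromosome 9 from 116153791 to 116402321, was another transcript of the MDA-MB-231 line. It had 619 counts with DMSO and 338 with MBZ there, or 27.3 and 18.0 CPM, a log2 ratio of -0.60 (-0.80 to -0.41). This is 1.52-fold lower, and it was under 1.5-fold with scaling by total counts or with TMM factors over all 4 libraries. In the SUM159 line 9 and 5 counts gave too little depth for a comparison. Its exons share 2450 bases with the antisense gene PAPPA-AS1, listed with 0 counts in all 4 libraries.

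**Figure D1:**
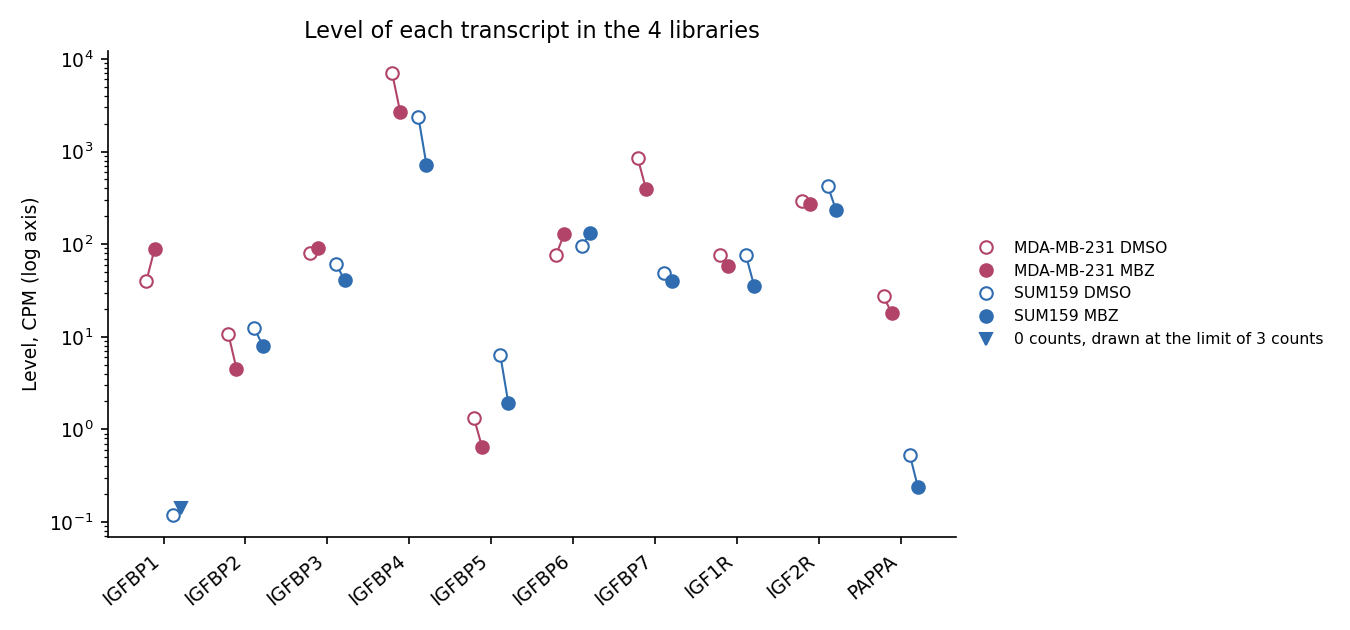
Level in CPM on a log axis of each of the 10 transcripts, with open circles for DMSO, filled circles for MBZ, 1 library per point and a line joining the libraries of a cell line. Points are to be compared within a gene, and IGFBP4 spans 716 to 7076 CPM, IGFBP1 and PAPPA separate the lines, and the IGFBP1 library with 0 counts is drawn as a triangle at the level of 3 counts.

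**Figure D2:**
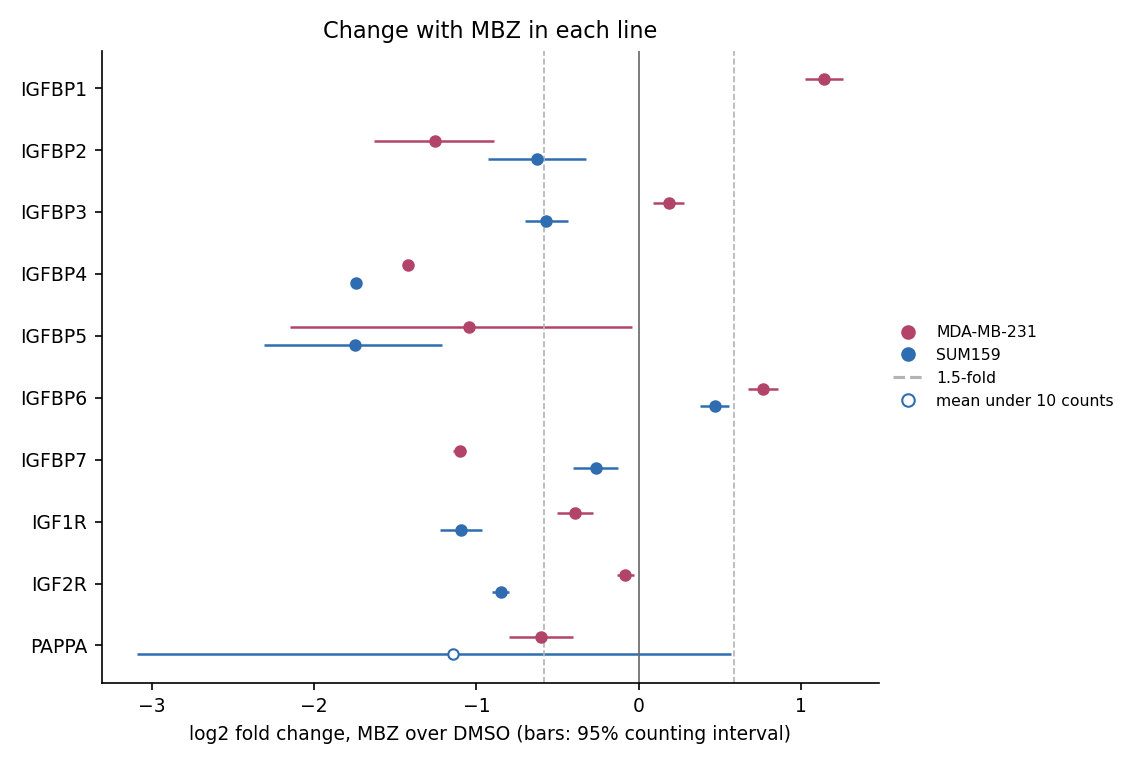
Log2 ratio of MBZ over DMSO for each gene, in the MDA-MB-231 and SUM159 lines, with 95% counting intervals as bars and 1.5-fold as dashed lines. IGFBP4 is lower in both lines at -1.42 and -1.74, IGFBP6 is higher in both at 0.77 and 0.47, IGFBP7 is lower by more in the MDA-MB-231 line than in the SUM159 line, and IGF1R and IGF2R are lower in the SUM159 line. IGFBP1 has no value in the SUM159 line.

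Counted over the list, 5 of the 10 genes were at least 1.5-fold lower with MBZ in the MDA-MB-231 line (IGFBP2, IGFBP4, IGFBP5, IGFBP7 and PAPPA), where 15.8% of all 15142 genes compared were lower, and 2 were higher (IGFBP1 and IGFBP6), against 18.3% of all. All 10 passed the minimum mean of 10 counts there, and their median log2 ratio was -0.50, with a median of -0.02 over all genes. In the SUM159 line 8 passed it, IGFBP1 and PAPPA being too low. Of these, 5 were lower (IGFBP2, IGFBP4, IGFBP5, IGF1R and IGF2R), against 21.7% of all 15674 genes, and 0 were higher, against 21.5%. Their median was -0.74, with -0.03 over all genes. In both lines at once, 3 of the 8 comparable genes were lower (IGFBP2, IGFBP4 and IGFBP5), against 4.71% of 13733 genes, and 0 were higher, against 6.12%. With scaling by total counts, 1 gene (IGFBP6) was higher and 3 were lower in SUM159, where 32.8% of all genes were higher and 12.8% lower, and in MDA-MB-231 2 were higher and 4 lower, against 29.1% and 7.57% of all.

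The one test whose spread comes from the data asks whether a gene moved alike in both lines, which then stand in for replicates. Over 16100 genes, with edgeR's quasi-likelihood test and p-values adjusted by Benjamini-Hochberg, 0 of the 10 genes were called at an adjusted p under 0.05, against 0.00621% of all genes, and 1 of the 10, IGFBP4, had an unadjusted p under 0.05, against 7.14% of all genes, a share near which 1 of 10 lies. IGFBP4 stood at a log2 ratio of -1.54 (standard error 0.55, adjusted p = 0.631 in edgeR's quasi-likelihood test), lower in both lines. Its adjusted p ranged from 0.000376 with DESeq2's Wald test to 1.00 without cell line in the model, and was 0.0147 when every gene with a count was kept. DESeq2 called 0.706% of the 13603 genes to which it gave an adjusted p, and the fit with every gene called 0.923% of 32295, so calls were more frequent over all genes there too. IGFBP6, at 0.66 (standard error 0.29), IGF1R, at -0.70 (0.31), and IGFBP5, at -1.39 (0.63), each had an adjusted p of 0.70 in edgeR's test, and the remaining 6 genes had 0.724 or more. The spread edgeR's test uses is how far the responses of the lines differ, drawn from the gene itself and from all genes together. The adjusted p of IGFBP4 thus does not measure how far the lines differ for that gene alone. The spread between cultures is unknown.

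The untreated lines carried different sets of these transcripts. In TPM, MDA-MB-231 cells held 3.09 times as much IGFBP4 as SUM159 cells (counting interval 3.05 to 3.12), 18.1 times as much IGFBP7 (16.9 to 19.5), 53.2 times as much PAPPA (27.8 to 117) and 352 times as much IGFBP1 (97.1 to 2909, with 2 counts in the SUM159 line). SUM159 cells held 4.66 times as much IGFBP5 (3.08 to 7.23) and 1.40 times as much IGF2R (1.35 to 1.45). For IGF1R and IGFBP2 the ratio of MDA-MB-231 to SUM159 cells was 1.06 (0.98 to 1.14) and 0.91 (0.75 to 1.10), both with 1 inside the interval. In the MDA-MB-231 line with DMSO the order per length was IGFBP4, IGFBP7, IGFBP6, IGFBP1, IGFBP3, IGF2R, IGF1R, PAPPA, IGFBP2 and IGFBP5, and the intervals of PAPPA at 8.0 TPM and IGFBP2 at 7.73 TPM overlapped. In the SUM159 line with DMSO it was IGFBP4, IGFBP6, IGFBP7, IGF2R, IGFBP3, IGF1R, IGFBP2, IGFBP5, IGFBP1 and PAPPA, with the last 2 overlapping. No other neighbours in these orders overlapped, and with MBZ both orders were the same, IGFBP1 with 0 counts in the SUM159 line set aside.

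Summed over the 7 binding proteins, the transcripts made up 12734 TPM in the MDA-MB-231 line with DMSO and 6493 TPM with MBZ, and 3902 and 1745 TPM in the SUM159 line. The MBZ libraries thus held 51.0% and 44.7% of the DMSO sum, or 42.0% and 38% with the TMM factors applied. IGFBP4 made up 85.6% of the sum with DMSO and 76.2% with MBZ in the MDA-MB-231 line, and 90.6% and 71.4% in the SUM159 line. Without IGFBP4 the MBZ sum was 84.5% of the DMSO sum in the MDA-MB-231 line, and 135% in the SUM159 line, or 69.5% and 115% with the TMM factors. IGFBP6 took up a larger share with MBZ in both lines, 6.06% against 1.5% in the MDA-MB-231 line, and 21.6% against 5.93% in the SUM159 line. IGFBP1 reached 3.42% of the sum in the MDA-MB-231 line with MBZ. IGFBP7 stayed at 11.7% with DMSO and 13.0% with MBZ in that line.

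**Figure D3:**
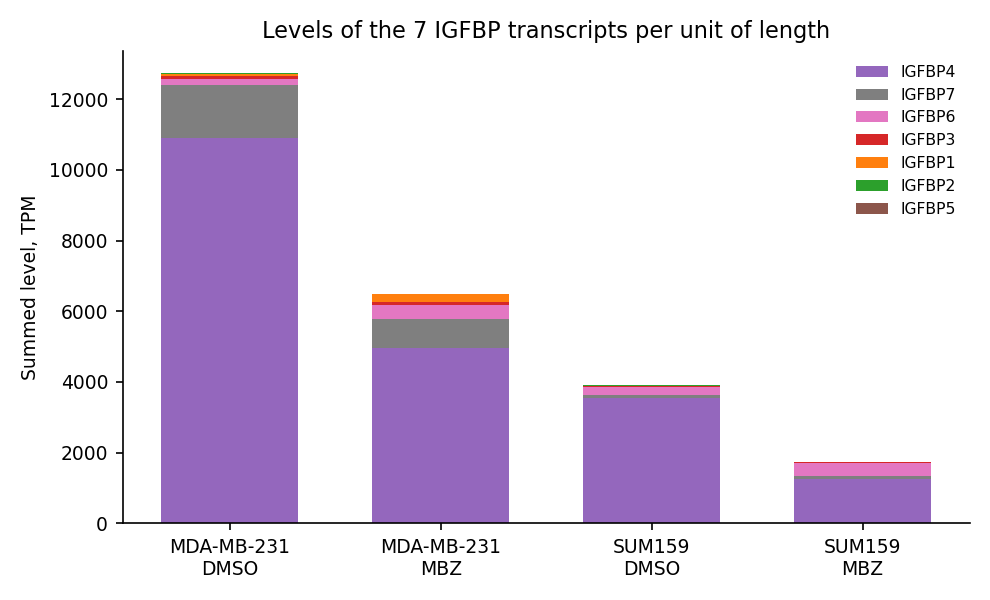
Summed level in TPM of the 7 binding protein transcripts in each of the 4 libraries, stacked by gene from 0. IGFBP4 fills 85.6% and 90.6% of the DMSO bars of MDA-MB-231 and SUM159 cells, IGFBP7 is a visible share in the MDA-MB-231 line, and IGFBP6 is 21.6% of the bar of the SUM159 line with MBZ.

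The ligands themselves had few or no counts. IGF1, the ligand induced by growth hormone, had 0, 0, 4 and 3 counts in the MDA-MB-231 line with DMSO and MBZ and in the SUM159 line with DMSO and MBZ, IGF2, the fetal growth factor, had 0, 1, 0 and 0, and the insulin gene INS had 0 in all 4. The readthrough gene INS-IGF2 overlaps both of the latter and had 0 counts. IGF2 also shares 2711 and 373 exonic bases on its own strand with a pair of unnamed genes, both with 0 counts, and IGF1 shares 6693 with HELLPAR on the opposite strand. Union mode leaves out reads ambiguous between genes, so counts of 0 do not show that these ligands had no reads. The insulin receptor INSR, which pairs with IGF1R in hybrid receptors, went from 659 to 360 counts in the MDA-MB-231 line, a log2 ratio of -0.60 (-0.79 to -0.41), and from 705 to 726 in the SUM159 line, -0.27 (-0.43 to -0.12). Its relative INSRR, an alkali sensor, had at most 3 counts. M6PR, the small mannose 6-phosphate receptor that does not bind IGF2, was at -0.04 (-0.13 to 0.06) and -0.11 (-0.21 to -0.02).

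The proteases and their inhibitors lay on both sides of their DMSO level. Of 19 partners of the IGF axis, 13 could be compared in the MDA-MB-231 line, of which 5 were at least 1.5-fold higher and 4 lower, and 11 in the SUM159 line, of which 3 were higher and 4 lower. Over all genes the shares higher and lower were 18.3% and 15.8% in MDA-MB-231, and 21.5% and 21.7% in SUM159, and the 3 of 11 lie near that share. Their median log2 ratios were -0.04 and -0.11. Scaled by total counts, the splits were 5 higher and 1 lower, and 4 higher and 3 lower, where the shares over all genes were 29.1% and 7.57%, and 32.8% and 12.8%. The stanniocalcins STC1 and STC2, secreted glycoproteins that inhibit PAPPA, were both higher with MBZ in both lines. STC1 went from 958 to 1254 counts in the MDA-MB-231 line, a log2 ratio of 0.66 (0.54 to 0.78), and from 314 to 5929 in the SUM159 line, 3.92 (3.76 to 4.09). STC2 went from 50 to 115 counts, 1.47 (0.98 to 1.98), and from 2466 to 7861 counts, 1.36 (1.29 to 1.42). PRG2, the major basic protein whose precursor binds PAPPA, had 0 counts in all 4 libraries.

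PAPPA2, a protease that cuts IGFBP3 and IGFBP5, had 4 and 25 counts in the MDA-MB-231 line, and 10 and 27 in the SUM159 line, log2 ratios of 2.87 (1.38 to 4.90) and 1.11 (0.02 to 2.33) from very few reads. HTRA1, a secreted serine protease that can cut IGFBP5, was lower in both lines alongside IGFBP4, from 3342 to 982 counts at -1.49 (-1.60 to -1.39) and from 8992 to 3643 counts at -1.62 (-1.68 to -1.56). CTSD, a lysosomal aspartic protease carried by mannose 6-phosphate receptors, went from 34892 to 16879 counts at -0.78 (-0.80 to -0.75) and from 14781 to 7100 counts at -1.37 (-1.42 to -1.33). With scaling by total counts CTSD was under 1.5-fold lower in the MDA-MB-231 line. Exons of CTSD overlap other genes on both strands, of which the most read had 264 counts, so its counts carry that limit. In the test of a change alike in both lines, STC1, STC2, HTRA1 and CTSD had adjusted p-values of 0.624, 0.441, 0.441 and 0.675 in edgeR's quasi-likelihood test. With DESeq2's Wald test the adjusted p was 0.202, 0.0145, 0.000685 and 0.174. When every gene with a count was kept, it was 1.47e-05, 0.0167, 0.0043 and 0.244 in edgeR's quasi-likelihood test.

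**Figure D4:**
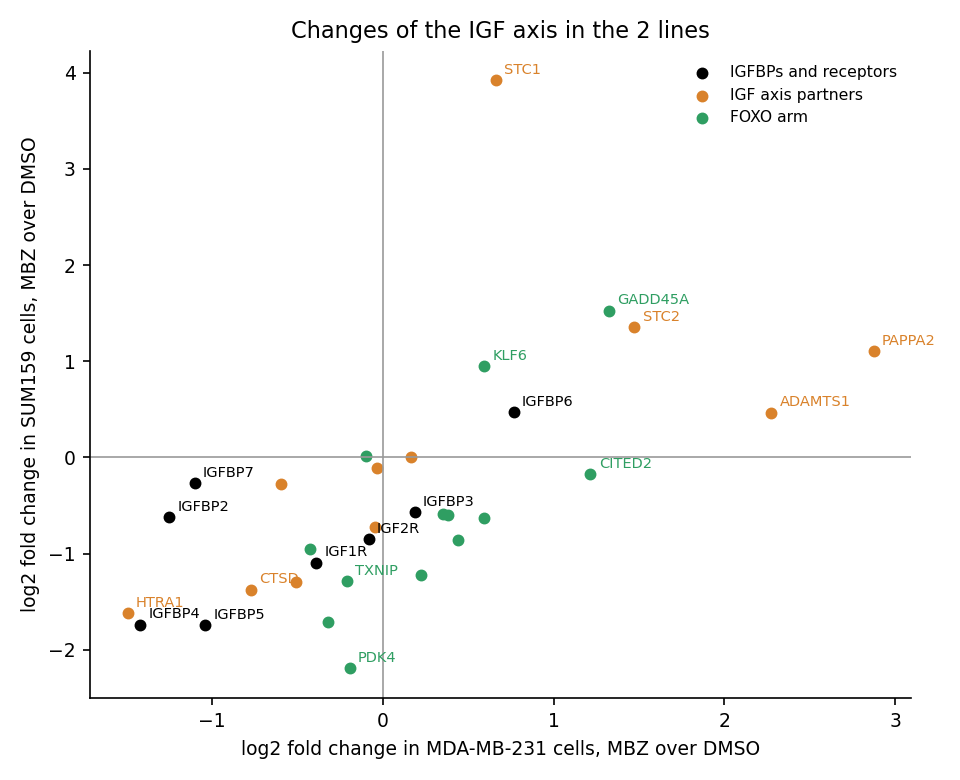
Log2 ratio of MBZ over DMSO in the SUM159 line (vertical) against MDA-MB-231 cells (horizontal), 1 point a gene with enough counts in both lines, for the binding proteins and receptors, the IGF axis partners and the FOXO list. IGFBP4 and IGFBP5 lie at the lower left beside HTRA1, STC1 and STC2 at the upper right, and IGF2R and most FOXO genes near or right of the vertical axis, below 0 in SUM159.

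Downstream of IGF1R, 14 of 16 receptor adaptors and brakes could be compared. In the MDA-MB-231 line 2 were at least 1.5-fold higher and 2 lower, with a median of 0.15, near the 18.3% and 15.8% of all genes. In the SUM159 line 0 were higher and 6 lower, with a median of -0.42, against 21.5% and 21.7% of all. DESeq2 size factors gave 1 higher and 3 lower, and 1 higher and 6 lower, with 16.7% and 17.8%, and 21.9% and 21.2% of all genes. With scaling by total counts the split was 6 higher and 0 lower in the MDA-MB-231 line, and 3 and 4 in the SUM159 line, with 29.1% and 7.57%, and 32.8% and 12.8% of all genes. RACK1, a ribosomal scaffold protein that also binds IGF1R, was lower in both lines at -0.61 (-0.63 to -0.58) and -1.12 (-1.14 to -1.10). IRS1, an adaptor of IGF1R, was at 0.04 (-0.02 to 0.10) and -0.77 (-0.98 to -0.57), and SHC1, the adaptor towards the MAPK pathway, at -0.55 (-0.62 to -0.49) and -0.87 (-0.91 to -0.83). The 2 genes higher in the MDA-MB-231 line were SOCS2 and SOCS1, and both were among the 6 lower in the SUM159 line. SOCS2 was at 1.18 (0.95 to 1.41) and -0.97 (-1.49 to -0.46). SOCS1, with 43 and 55 counts in the MDA-MB-231 line, was at 0.63 (0.03 to 1.24) and -1.11 (-1.33 to -0.89). IRS1, SHC1, SOCS2 and SOCS1 were chosen after their values were seen.

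Among the 18 comparable genes of the PI3K and AKT arm, 1 was at least 1.5-fold higher and 1 lower in the MDA-MB-231 line, and 2 higher and 3 lower in the SUM159 line, with medians of 0.11 and -0.16. These counts lie at or below the shares over all genes (18.3% and 15.8%, then 21.5% and 21.7%). With scaling by total counts the split in the MDA-MB-231 line was 5 higher and 1 lower, and that in the SUM159 line 3 and 3, of which the higher counts lie at or below the 29.1% and 32.8% of all genes higher with that scaling (7.57% and 12.8% were lower). DESeq2 size factors gave 1 and 2, and 2 and 3, with 16.7% and 17.8%, and 21.9% and 21.2% of all genes. AKT1, the central kinase of the arm, was the lower one in the MDA-MB-231 line at -0.93 (-1.0 to -0.86), and had -0.08 (-0.15 to -0.02) in the SUM159 line. DEPTOR, an inhibitor of mTOR, went from 266 to 60 counts in the SUM159 line at -2.46 (-2.89 to -2.06), and had 20 and 18 counts in the MDA-MB-231 line. PIK3R1, a regulatory subunit of PI3K, was at 0.77 (0.53 to 1.01) and -1.04 (-1.13 to -0.94). These 3 genes were named after their values were seen.

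The last list holds the FOXO factors, which AKT keeps out of the nucleus, and genes they are known to be able to drive. Of its 13 genes, 4 were at least 1.5-fold higher and 0 lower with MBZ in the MDA-MB-231 line, with a median log2 ratio of 0.35, and 2 were higher and 9 lower in the SUM159 line, with a median of -0.63. Over all genes 18.3% and 15.8% were higher and lower in the former, and 21.5% and 21.7% in the latter. Scaled by total counts, these became 7 and 0, and 2 and 5, where all genes had 29.1% and 7.57%, and 32.8% and 12.8%. With DESeq2 size factors they were 2 and 0, and 2 and 7, where all genes had 16.7% and 17.8%, and 21.9% and 21.2%. GADD45A, a stress gene of growth arrest, was higher in both lines at 1.33 (1.21 to 1.44) and 1.53 (1.43 to 1.63), and so was KLF6, a zinc finger factor, at 0.59 (0.53 to 0.66) and 0.95 (0.86 to 1.04). In the test of a change alike in both lines, GADD45A had an adjusted p of 0.441 in edgeR's quasi-likelihood test. With DESeq2's Wald test it was 0.00895, and 0.00854 in edgeR's quasi-likelihood test with every gene with a count kept. In MDA-MB-231 KLF6 lay at the threshold and was under it, at 0.54, with DESeq2 size factors. FOXO3, TXNIP and PDK4 were chosen after their values were seen. FOXO3 was at 0.59 (0.46 to 0.72) and -0.63 (-0.73 to -0.54), at the threshold in MDA-MB-231 too. TXNIP, an inhibitor of glucose uptake, went from 39758 to 20263 counts in the SUM159 line at -1.29 (-1.31 to -1.26) and was at -0.21 (-0.26 to -0.16) in the MDA-MB-231 line. PDK4, a kinase that shuts off pyruvate dehydrogenase, went from 118 to 32 counts in the SUM159 line at -2.19 (-2.81 to -1.62) and was at -0.20 (-0.48 to 0.09) in the MDA-MB-231 line.

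**Figure D5:**
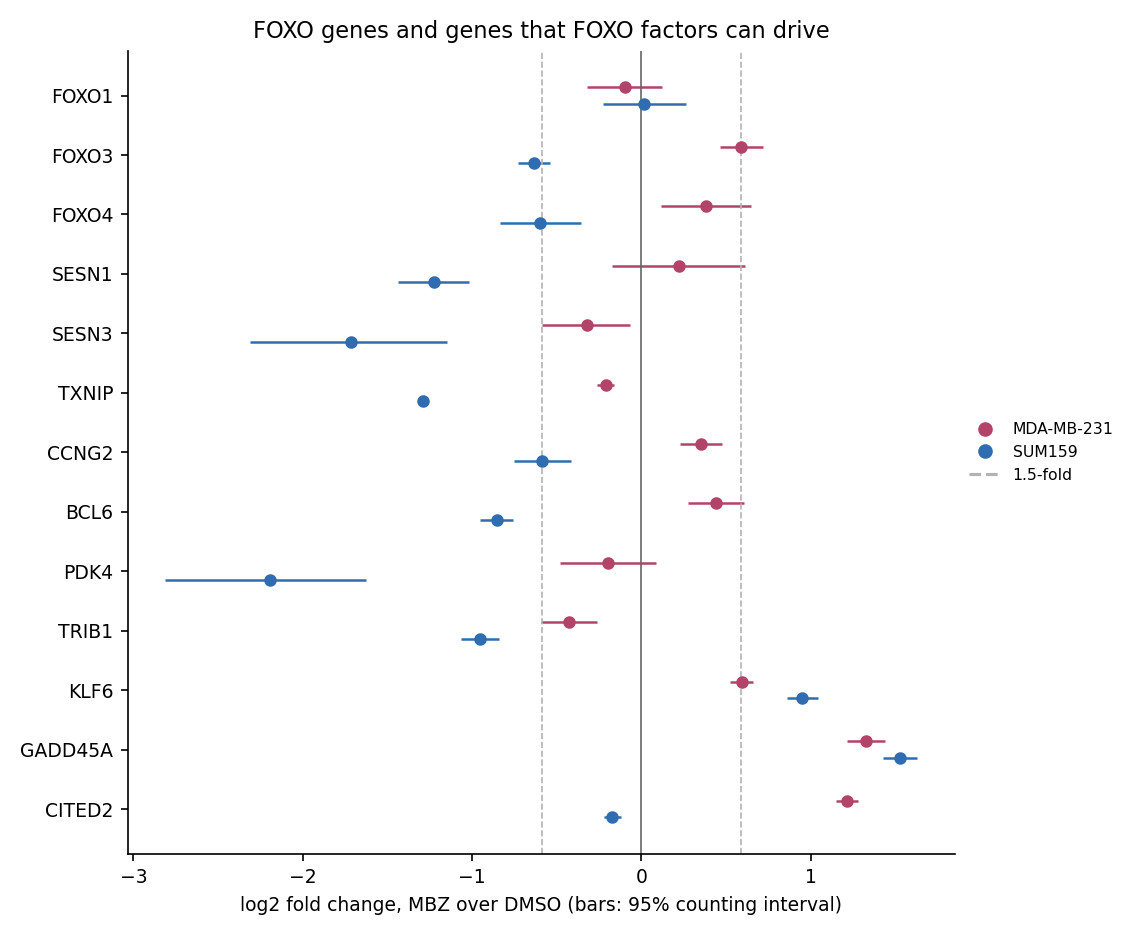
Log2 ratio of MBZ over DMSO for the 13 genes of the FOXO list in the MDA-MB-231 and SUM159 lines, with 95% counting intervals as bars and 1.5-fold as dashed lines. In the SUM159 line 9 genes lie at or beyond 1.5-fold lower, among them PDK4 at -2.19, while GADD45A and KLF6 are higher in both lines.

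The 3 IGF2 mRNA binding proteins are RNA binding proteins outside the family despite their name. IGF2BP2 was at -0.41 (-0.51 to -0.31) and -0.28 (-0.39 to -0.17), and IGF2BP3 at -0.49 (-0.67 to -0.31) in the MDA-MB-231 line and, from 16 to 99 counts, at 2.31 (1.54 to 3.17) in the SUM159 line. IGF2BP1 had at most 3 counts in the MDA-MB-231 line, and 48 and 80 in the SUM159 line, a log2 ratio of 0.42 (-0.11 to 0.97).

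For the 3 members of highest mean CPM, the genes nearest in the plane of both log2 ratios were sought among 11152 genes with a mean of 100 counts or more. Nearest to IGFBP4 were CADM4, at -1.36 and -1.74 in the MDA-MB-231 and SUM159 lines, PTPRU, at -1.47 and -1.78, and SCD5, at -1.47 and -1.69. IGFBP7 lay nearest to PRXL2B, at -1.09 and -0.25, TAGLN2, at -1.14 and -0.24, and TLE3, at -1.15 and -0.29. TRIM4, at -0.08 and -0.86, USP48, at -0.11 and -0.85, and FHIP2A, at -0.11 and -0.85, were nearest to IGF2R. The likeness rests on 2 values per gene over 4 libraries and is a description.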

How the data were processed

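The 4 libraries, 1 for each line and treatment, were grouped by the samples' labels. The raw whole-number counts per gene deposited by the authors came from HTSeq 0.6.1 in union mode, run on paired reads aligned by STAR 2.5 to GRCh38, with no normalization. The annotation release and strand setting are not given in the sources used here. No row named no gene, and the 58207 rows with a symbol and length in GENCODE release 44 held at least 99.5% of the reads of each library. That release gave coordinates, overlaps and the exonic lengths for TPM, which carry no TMM factor.

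Within a line, edgeR 4.0.16 in R 4.3.3 gave TMM factors over the 2 libraries (0.901 to 1.11) and log2 CPM differences with a prior count of 0.125. A gene was compared with a mean of at least 10 counts and called at 1.5-fold. Where no library of a pair exceeded 3 counts, no fold was computed. Intervals are Clopper-Pearson (scipy 1.17.1), exact Poisson for levels, or Wald for the difference between the log2 ratios of the lines. They are computed from the counts of 1 library per condition and so cover counting error only. PCR copies were not marked, and the intervals make no allowance for them. The shared change was tested with edgeR's quasi-likelihood test (cell line and treatment, filterByExpr, TMM over 4 libraries, 1 residual degree of freedom), with DESeq2 1.42.0 among the alternatives. The functions were tested on counts simulated with less spread than the shared test found in these data. How often that test calls a changed gene at the spread of these data was not checked.

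All 10 genes were to be named, with list genes at least 1.5-fold apart from DMSO the same way in both lines or 2-fold in opposite ways, the ligands, other receptors and PAPPA inhibitors, and the 3 genes nearest in pattern to each of 3 members. The members and lists were chosen with earlier results of these data known.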

Additional observations from a re-analysis of the deposited data

Results flagged for a closer look

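IGFBP3 had opposite directions in the lines, with a log2 ratio of MBZ over DMSO of 0.19 in the MDA-MB-231 line and -0.57 in the SUM159 line. Each line has 1 library per treatment, so the difference was not tested.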

How the results depend on the processing

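Each group has 1 library, so none could be left out, and the only pairing is by cell line, which the shared test holds as a term. Without that term 0 of the 10 genes and 0 of all 16100 genes were called, so that fit shows nothing particular to the 10. With the term 0 of the 10 and 0.00621% of all genes were called. With a fold threshold of 2, 1 of the 10 genes was higher in the MDA-MB-231 line in place of 2, where 9.05% of all genes were higher, and 3 were lower in the SUM159 line in place of 5, where 10.7% of all were lower. With scaling by total counts, which moved the median of all genes to 0.25 in MDA-MB-231 and 0.27 in SUM159, 1 was higher in the SUM159 line in place of 0, and 3 were lower in place of 5. Of all genes, 32.8% were higher and 12.8% lower in SUM159 with that scaling. In the shared test, 1 of the 10, IGFBP4, was called with DESeq2 and 1, the same gene, when every gene with a count was kept, in place of 0, while the share of genes called went from 0.00621% of 16100 to 0.706% of 13603 and 0.923% of 32295. Of the 19 fold changes of members within a line, 17 stayed inside their counting interval with DESeq2 size factors, 18 with TMM over 4 libraries, 19 with a prior count of 2 and 4 with total counts. Total counts turned the sign of 2, IGF2R in MDA-MB-231 and IGFBP7 in the SUM159 line, neither past 1.5-fold. The spread between cultures is unknown, and depth limits IGFBP5 in the MDA-MB-231 line, and IGFBP1 and PAPPA in the SUM159 line.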

Other observations

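IGFBPL1, a relative of the binding proteins that was not among the 10 genes and was named after its values were seen, went from 354 to 163 counts with MBZ in the MDA-MB-231 line, a log2 ratio of -0.85 (95% counting interval -1.12 to -0.57), and had 0 counts in both SUM159 libraries. ADAMTS1, a secreted metalloprotease also named after its values were seen, went from 127 to 509 counts in the MDA-MB-231 line at 2.27 (1.99 to 2.57) and from 86 to 148 in the SUM159 line at 0.47 (0.07 to 0.87).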
